A study of Mus musculus with 8 samples.

Results

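The conjugation enzymes of drug metabolism were followed in mouse small-intestinal organoids (cultured epithelium that forms buds like crypts). The members are the genes whose name on the array begins with Ugt, Gst plus a class letter, or Sult, each followed by a number. They are the UDP-glucuronosyltransferases (UGT, 15 genes), the soluble glutathione S-transferases with a class letter (GST, 20 genes) and the sulfotransferases (SULT, 16 genes). These 51 genes, measured by 65 probes, were taken out of 28146 gene names on the array. Of the 51, 44 passed the filter on dim probes (14 UGT, 20 GST and 10 SULT), as did 19145 of all genes. The filter kept a probe if the scanner marked either colour well above background on 2 arrays or more.

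The 8 arrays were 2-colour arrays, each with the RNA of an organoid culture (its own RNA) beside that of a control culture. Experiment 1 held 2 arrays, with the dyes swapped between them, of organoids labelled as transduced with Ascl2 under a CMV promoter, taken 24 h after induction, against VillinCreERT2 organoids. Experiment 2 held 1 array each of organoids labelled Ascl2 overexpressing (OE), Tcf7l2 null, and Tcf7l2 null with Ascl2 OE, with dsGFP transduced organoids as control throughout. A further array of it carried dsGFP RNA alone, in both colours. Experiment 3 held 1 array of organoids labelled Ascl2 null, with VillinCreERT2 organoids as control, and another of that control alone. These 2 arrays of control RNA alone are called self-self below. All organoids, controls included, had 4OH-tamoxifen, which activates CreERT2, for 16 h, so effects of the pulse common to both cannot be seen. Age, strain and the number of clones or cultures are not stated in the labels. For the experiment 3 control, the labels name VillinCreERT2 as genotype and a floxed Ascl2 allele in the description. The 3 condition arrays of experiment 2 share their control. Stem cells at the crypt base express the transcription factor Ascl2, and Tcf7l2 binds DNA for beta-catenin in Wnt signalling.

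Conjugation makes foreign compounds, bile pigments and hormones more soluble so that they can be exported. UGT enzymes attach glucuronic acid from UDP-glucuronate, GST enzymes attach glutathione to reactive compounds, and SULT enzymes attach sulfate from the donor PAPS. In the intestine these enzymes are known mainly from the absorptive enterocytes of the villus, where they act on compounds taken up from food. In bulk RNA, fewer cells of a type and less RNA per cell cannot be told apart.

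Between 50.1% and 67.4% of spots were well above background in a colour, and no spot was saturated. The 15 enterocyte markers (among them villin, lactase and the fatty acid binding proteins Fabp1 and Fabp2) were well above background in both colours on all 8 arrays. Of markers of cells outside the epithelium, at most 5 of 5 immune, 5 of 6 fibroblast and 2 of 4 endothelial genes were well above background in a colour of an array, with list medians between -0.10 and 0.17. The targeted genes were examined before the members. The single Ascl2 probe had log2 ratios, own RNA over control, of -0.31 and 0.12 on the experiment 1 arrays labelled Ascl2 OE, and of -0.72 and -0.93 on the 2 experiment 2 arrays with that label, against 0.01 and -0.26 on the self-self arrays. On the 4 arrays labelled OE it was thus below 0 on 3, and on the other, at 0.12, it had a fitted experiment 1 difference of -0.10 together with its replicate (SE 0.12, limma adjusted p = 0.806). It was -1.07 on the array labelled Ascl2 null. The 3 Tcf7l2 probes lay between -0.34 and 0.18 on both arrays labelled Tcf7l2 null, against -0.34 to 0.37 on the self-self arrays. The sources do not say whether these probes lie in the transgene or the deleted part, so each direction below is that of an array with the label named.

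The sequences of 6 probes are shown because they bear on which gene a value belongs to. Probes are 60 bases long, positions (mm9) come from the annotation in the scanner files, and sequences read 5′ to 3′. Among 2064 pairs of probes of different members, Gsta1 and Gsta2 were the only pair with a shared run of 14 bases or more. Probes were compared only with probes. Whether a probe also matches the transcript of another member, such as a neighbour in the Ugt2b or Gstm genes, was not checked. The 20 bases that their probes share are in capitals. Gsta1 lies on chromosome 9 between 78083844 and 78087325, in 2 pieces across an intron, and Gsta2 on chromosome 9 between 78181644 and 78181703.
Gsta1: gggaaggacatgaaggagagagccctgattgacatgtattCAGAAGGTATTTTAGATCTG
Gsta2: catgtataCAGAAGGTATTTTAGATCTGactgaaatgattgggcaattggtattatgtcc
The Ugt1a genes of chromosome 1 are alternative first exons spliced to a common set of 3′ exons. The Ugt1a9 probe (89968031 to 89968090), the upstream Ugt1a6b probe (90003830 to 90003889) and the Ugt1a1 probe (90108880 to 90108939) lie far apart and follow each other on the plus strand.
Ugt1a9: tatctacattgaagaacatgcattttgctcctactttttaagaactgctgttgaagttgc
Ugt1a6b, upstream: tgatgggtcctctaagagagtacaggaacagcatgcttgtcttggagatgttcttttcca
Ugt1a1: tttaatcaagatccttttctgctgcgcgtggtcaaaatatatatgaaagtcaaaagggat
The other Ugt1a6b probe (90115472 to 90115531) starts 6532 bases beyond the Ugt1a1 probe, on the side of the common exons. A probe in the common exons reads transcripts of every Ugt1a gene, and whether this one lies in them was not checked against an exon annotation. Only its first 30 bases are shown.
Ugt1a6b, downstream: ttgtgccggaatttgatgaaaaccaaagta

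All ratios below are log2 values of own RNA over control RNA. On the self-self arrays they are Cy5 over Cy3, the 2 dyes. Over the 44 detected members, the median ratio was -0.28 and -0.26 on the experiment 1 arrays labelled Ascl2 OE, -0.0061 on the experiment 2 array with that label, -0.29 on the Tcf7l2 null array, 0.29 on the array of both changes and 0.52 on the Ascl2 null array. On the self-self arrays it was -0.02 (experiment 2) and -0.11 (experiment 3). The median over all genes was between -0.0065 and 0.011 on every array. No member reached 2-fold on a self-self array, where 0.0105% and 0.0993% of all genes did. On the arrays of the conditions, 24 values of 12 members reached 2-fold, 16 of them also under every alternative processing tried. The experiment 1 arrays had 0 and 4 of 44 members there, beside 123 of 19137 and 178 of 19045 genes. Ascl2 OE in experiment 2 had 3 of 44 members and 344 of 19104 genes. Loss of Tcf7l2 had 3 of 44 and 164 of 19129, and both changes 6 of 43 and 563 of 19116. Ascl2 null organoids had 8 of 44 and 662 of 19123. The count under every alternative is not given for all genes. Of the 44 members, 7 were not well above background in both colours on all 8 arrays. These 7 (Gstt4, Sult1a1, Sult1e1, Sult2a7, Sult5a1, Ugt3a1 and Ugt8a) had ratios between -0.37 and 0.35 on every array, and no fold is drawn from them.

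**Figure D1:**
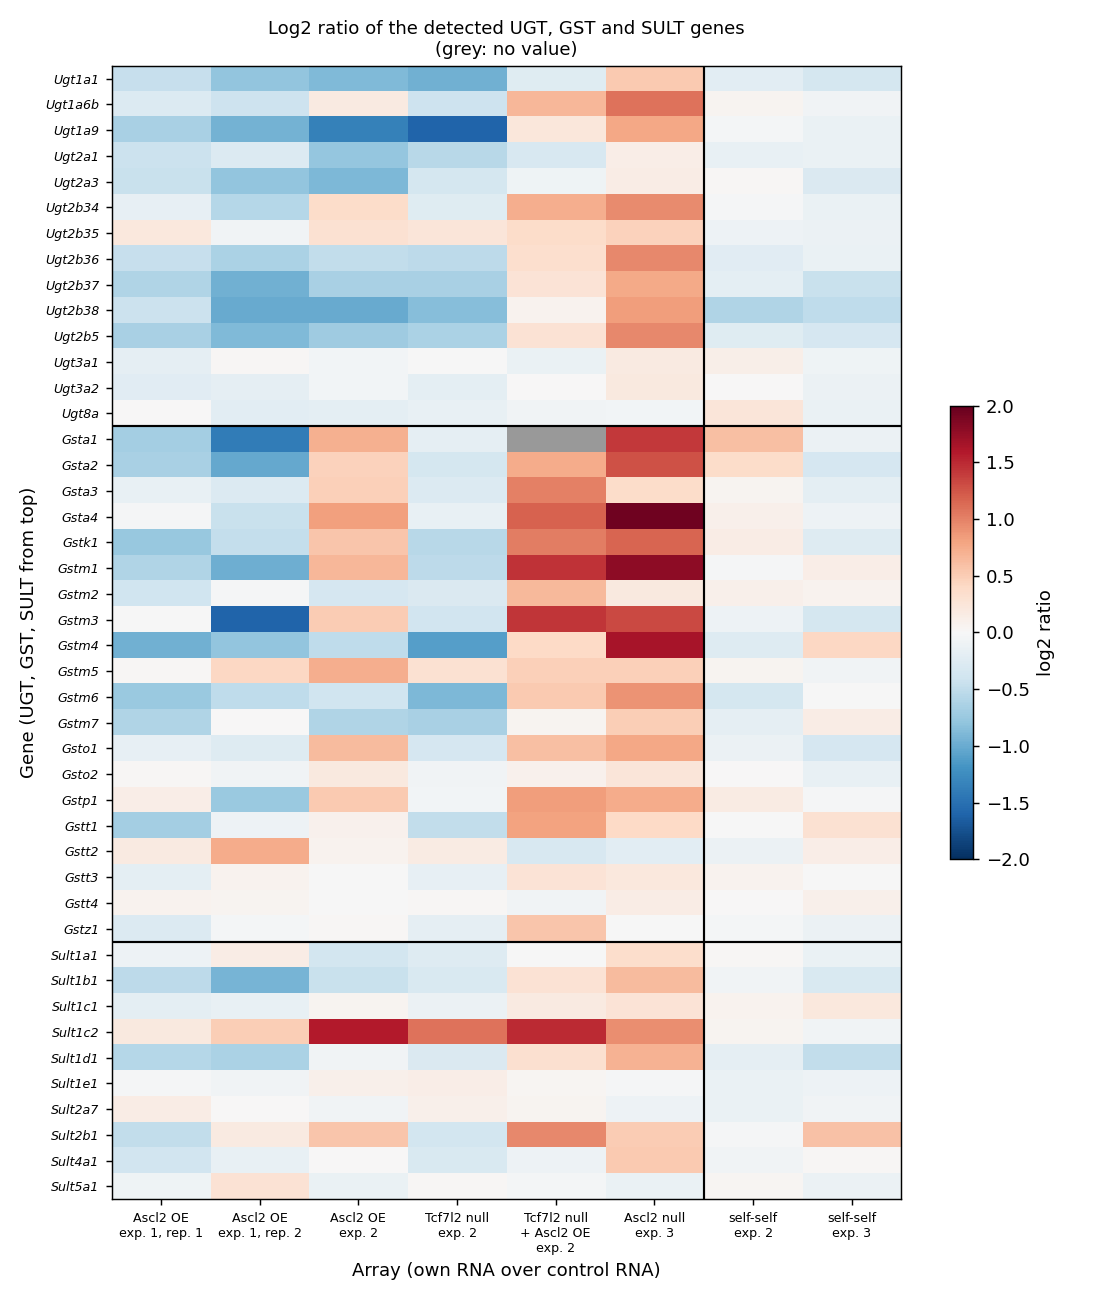
Log2 ratio of own RNA over control RNA for the 44 detected genes (rows, UGT, GST and SULT from the top) on the 8 arrays (columns), with the 6 arrays of the conditions left of the black line and the 2 self-self arrays right of it. Blue is lower and red higher in the array's own RNA, grey marks Gsta1 on 1 array where its spot was an outlier. Most rows are blue on the experiment 1 and Tcf7l2 null arrays and red on the Ascl2 null array, where the median was 0.52.

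**Figure D2:**
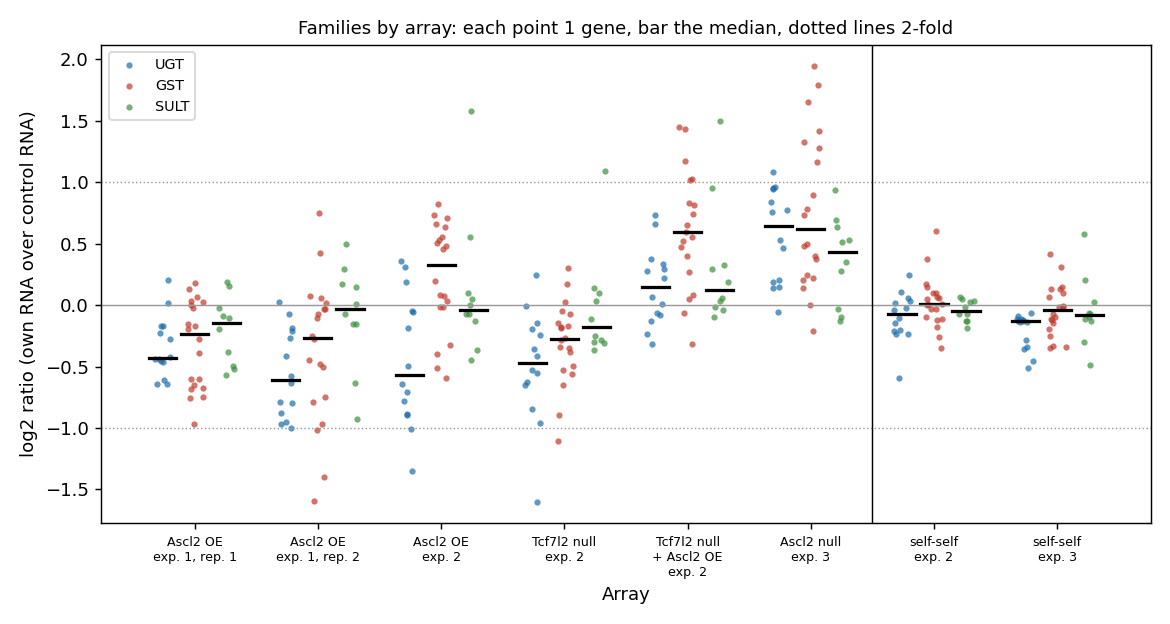
Log2 ratio of own RNA over control RNA by array and family, each point 1 gene and each bar the family's median, with dotted lines at 2-fold. On the experiment 2 array labelled Ascl2 OE the UGT median was -0.57 and the GST median 0.33.

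Experiment 1 was the only comparison with a replicate, and it asked how Ascl2 transduction changes the members. In the limma fit across all genes, 2 members fell, the glucuronosyltransferase Ugt1a9 and the mu-class glutathione transferase Gstm1, and none rose. The background was 0.684% of 19142 genes called lower (131 genes) and 0.392% called higher. The fitted effect was below 0 for 36 of 44 members, with a median of -0.28, against a median of 0.00051 over all genes. Both arrays were below 0 for 29 of 44 members, against 27.1% of all genes, and both above 0 for 5 members. At an unadjusted p under 0.05, 20 members were lower and 2 higher, where 8.07% and 6.89% of all genes were.

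Ugt1a9 had ratios of -0.64 and -0.95 on the 2 experiment 1 arrays, a fitted difference of -0.79 (SE 0.12, n = 2 arrays, limma adjusted p = 0.0464). Gstm1 had ratios of -0.60 and -0.97, a fitted difference of -0.78 (SE 0.11, n = 2 arrays, limma adjusted p = 0.0383). The self-self values were -0.04 and -0.13 for Ugt1a9 and -0.03 and 0.13 for Gstm1. The Gstm1 values are means of 2 probes. Of these, 1 read -0.48 on the experiment 2 self-self array, as Cy5 over Cy3, beside -0.50 and -0.55 in experiment 1. The -0.55 was read with the array's own RNA in Cy3, where a dye bias acts in the opposite direction. Both calls were lost without either replicate, with limma adjusted p between 0.165 and 0.526, and under several other settings given in the closing section. Nothing in the labels says whether separate cultures were used. The p-values measure only how these arrays and the self-self arrays vary, which can be technical variation alone.

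Of 14 UGT genes in experiment 1, 13 had a fitted effect below 0, with a median of -0.46, and 10 had an unadjusted p under 0.05 on the lower side. Ugt2b5, a member of the steroid- and bile-acid-conjugating Ugt2b cluster on chromosome 5, had -0.65 and -0.88 (fitted -0.76, SE 0.15, limma adjusted p = 0.0753). Its neighbours Ugt2b37 and Ugt2b36 had fitted differences of -0.79 and -0.55, with adjusted p of 0.104 and 0.108. Ugt1a1, the bilirubin-conjugating enzyme, had -0.46 and -0.79 (fitted -0.63, SE 0.16, limma adjusted p = 0.133). Ugt2b38 had -0.44 with the array's own RNA in Cy5 and -1.0 with it in Cy3. Its self-self values, as Cy5 over Cy3, were -0.59 and -0.51. Ugt2b35 was the exception among the UGT genes, with 0.20 and -0.07.

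Of 20 GST genes, 17 had a fitted effect below 0 in experiment 1, with a median of -0.26. Gsta1, an alpha-class enzyme with peroxidase activity on lipid hydroperoxides, had -0.68 and -1.40 (fitted -1.04, SE 0.17, limma adjusted p = 0.0538). Gsta2, whose probe shares 20 bases with that of Gsta1, had -0.65 and -1.02 (fitted -0.84, limma adjusted p = 0.0887), so both cannot be counted as fully separate measurements. Among mu-class genes Gstm4 had -0.96 and -0.79, and Gstm6 had -0.75 and -0.50, with adjusted p of 0.0728 and 0.0692. Gstk1, the kappa-class enzyme of mitochondria and peroxisomes, had -0.76 and -0.48, with an adjusted p of 0.0839. Gstm3 differed most between the replicates, at -0.0034 and -1.60. Gstt2, a theta-class gene, went the other way with 0.18 and 0.75 (fitted 0.46, limma adjusted p = 0.178).

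In the SULT family, 6 of 10 genes had a fitted effect below 0 in experiment 1, with a median of -0.11. Sult1a1, Sult2a7 and Sult5a1 had 0.02, 0.08 and 0.10, and Sult1e1 had -0.05. All of these are among the genes named above from which no fold is drawn. Among SULT genes well above background in both colours on every array, only Sult1c2 had a fitted effect above 0. Sult1b1, which sulfates thyroid hormones and small phenols, had -0.52 and -0.93 (fitted -0.72, SE 0.15, limma adjusted p = 0.0887). Sult1d1, a sulfotransferase of catecholamines in mice, had -0.57 and -0.63 (fitted -0.60, limma adjusted p = 0.132). Its self-self values, as Cy5 over Cy3, were -0.19 and -0.49, and the array at -0.63 had its own RNA in Cy3. Sult1c2 was above 0 on both arrays, at 0.19 and 0.49.

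**Figure D3:**
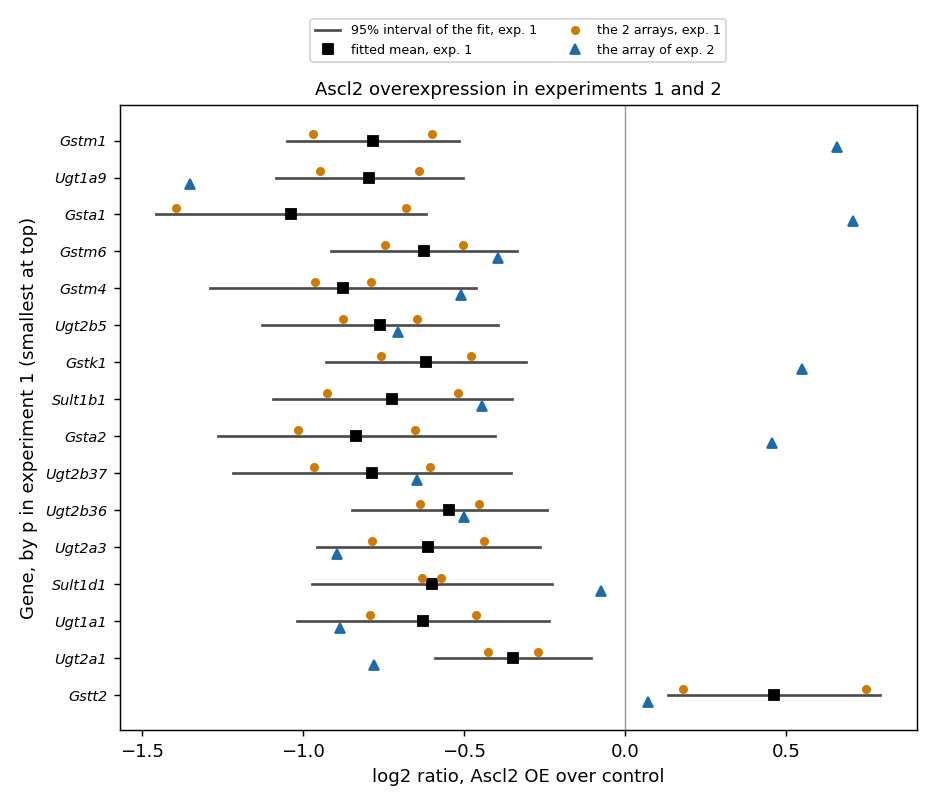
Log2 ratio of Ascl2 OE over control for the 16 members with the smallest p in experiment 1. Orange points are the 2 arrays of experiment 1, black squares and lines the fitted mean with its 95% interval, and blue triangles the array of experiment 2. Gstm1, Gsta1, Gstk1 and Gsta2 have their triangles above 0 and their intervals below 0, while for Ugt1a9, at -1.35, the triangle lies lowest.

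On the experiment 2 array labelled Ascl2 OE, 11 of 14 UGT genes had ratios below 0, where 48.5% of all genes did (UGT median -0.57). Of 20 GST genes, 14 lay above 0, where 51.5% of all genes did (GST median 0.33). Less the self-self array of the slide, the GST median was 0.15 and the UGT median -0.42. Ugt1a9 was -1.35 and Ugt2b38 -1.01, against self-self values of -0.04 and -0.59 on that slide. Less that self-self array, Ugt2b38 was -0.41. Ugt2a3 and Ugt1a1 followed at -0.90 and -0.89. Sult1c2, a cytosolic sulfotransferase, was 1.58, against 0.05 on the self-self array. With 3 of 44 members at or beyond 2-fold and 1.8% of all genes there (344 genes), this array had no replicate, and no test was made of it alone.

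The 2 experiments labelled Ascl2 OE were set against each other in 1 model. Their controls differ (VillinCreERT2 and dsGFP transduced organoids), and a time of 24 h after induction is stated for experiment 1 only. A difference in the response to Ascl2 therefore cannot be told apart from one of control, time or experiment. The difference, experiment 2 minus experiment 1, passed for 0 members by limma at the adjusted threshold, against 0.712% of 19101 genes. At an unadjusted p under 0.05, 11 members were higher and 1 lower, where 4.48% and 3.87% of all genes were. The 11 included 8 GST genes. Sult1c2 and Gstm1 had the smallest p, with differences of 1.32 (95% interval 0.82 to 1.81) and 1.32 (0.82 to 1.82), and adjusted p of 0.0596 and 0.0603. The values of Gstm1 were 0.66 in experiment 2, against -0.60 and -0.97 in experiment 1. Gstk1 had a difference of 1.27 (SE 0.24, limma adjusted p = 0.11) and Gsta1 of 1.44 (SE 0.33, limma adjusted p = 0.179). For both, the experiment 2 array was above 0 and both experiment 1 arrays below it. Gsta1 also read 0.60 on the experiment 2 self-self array, where its 2 channels held the same RNA. The experiment 2 side of this test is a single array, which adds nothing to the estimate of spread. That estimate comes from the experiment 1 arrays and the self-self arrays, so the intervals can reflect technical variation alone.

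An effect shared by the 3 arrays labelled Ascl2 OE passed for 0 members by limma, against 0.0783% of 19145 genes, and 15 members had an unadjusted p under 0.05, where 12.6% of all genes did. The 5 smallest p belonged to UGT genes. Ugt1a9 had a shared difference of -0.96 (SE 0.14, n = 3 arrays, limma adjusted p = 0.0748), and Ugt2b5 one of -0.72 (SE 0.12, limma adjusted p = 0.108). Ugt2a3, Ugt2b36 and Ugt1a1 had -0.70, -0.52 and -0.68. Over the 14 UGT genes the median shared difference was -0.48, and 13 were below 0. The median was -0.19 over 20 GST genes, -0.03 over 10 SULT genes and 0.0040 over all genes.

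On the Tcf7l2 null array, 36 of 44 members were below 0, against 49.6% of all genes. The UGT median was -0.47, the GST median -0.28 and the SULT median -0.18. Ugt1a9 was -1.60, the lowest member, against -0.04 on the self-self array of the slide. Gstm4, a mu-class transferase, was -1.10, against -0.26. Ugt1a1 was -0.96 and Gstm6 -0.89, against self-self values of -0.21 and -0.35. Sult1c2 was the single member at least 2-fold higher, at 1.09, against 0.05, where 0.361% of all genes were. In all 3 of 44 members reached 2-fold, where 0.857% of all genes did. Under median centring in place of loess the GST median was 0.25, so its direction depends on the normalisation.

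Where Ascl2 OE was combined with loss of Tcf7l2, 33 of 43 members were above 0, against 51.2% of all genes. On that array 6 members were at least 2-fold higher, where 1.09% of all genes were, and none was 2-fold lower, where 1.86% were. Of these 6, 5 were GST genes. Gstm1 had 1.45 and Gstm3 1.43, against -0.03 and -0.10 on the self-self array. Gsta4, which conjugates the lipid peroxidation product 4-hydroxynonenal, had 1.17, against 0.10. Gstk1 and Gsta3 had 1.03 and 1.01, against 0.15 and 0.05, and both dropped under 2-fold after the self-self value was taken off. Sult1c2 had 1.5, against 0.05. The UGT genes lay lower, between -0.32 for Ugt2a1 and 0.73 for Ugt2b34, with a median of 0.14. Less the self-self array the UGT median was 0.37, and the GST median 0.65 in place of 0.60. Gsta1 had no value on this array because its spot was marked as an outlier.

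The arrays of experiment 2 share a control, so the array of both changes can be set directly against the other 2. Over the Tcf7l2 null array, 37 of 43 members were higher on the array with both changes, against 52.5% of all genes. The median difference was 0.72, and 12 members differed by at least 2-fold upwards, where 2.5% of all genes did. The difference was 1.98 for Gstm1, 1.82 for Ugt1a9, 1.82 for Gstm3 and 1.59 for Gstk1. Over the Ascl2 OE array, 34 of 43 members were higher, against 50.5% of all genes, with a median of 0.40. Here the 2 members beyond 2-fold were Ugt1a9 at 1.57 and Ugt2b38 at 1.07, where 0.472% of all genes were 2-fold higher. Sult1c2 differed little between the 2 arrays, by -0.08. Each of these differences rests on 1 array a side, and none was tested.

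**Figure D4:**
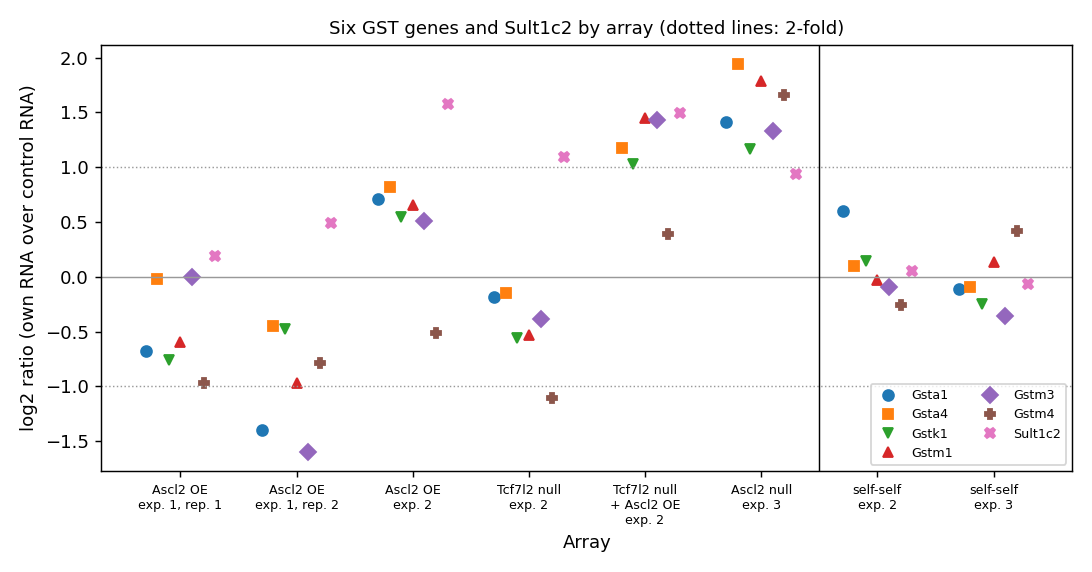
Log2 ratio of own RNA over control RNA for 6 GST genes and Sult1c2 (symbols) on the 8 arrays, with the self-self arrays right of the line and dotted lines at 2-fold. Gstm1, Gstm3 and Gsta4 stand above the upper dotted line on the array of both changes and on the Ascl2 null array. Sult1c2 stands above it on all 3 condition arrays of experiment 2.

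The Ascl2 null array of experiment 3 had the highest member values. Of 44 members, 38 were above 0, against 50.9% of all genes, and 8 were at least 2-fold higher, where 2.11% of all genes were (403 genes). None was 2-fold lower, where 1.35% were. Of these 8, 7 were GST genes. Gsta4 had 1.94, Gstm1 1.79 and Gstm4 1.65, against -0.10, 0.13 and 0.41 on the self-self array of the slide. Gsta1 had 1.41, Gsta2 1.27, Gstm3 1.33 and Gstk1 1.16, against -0.11, -0.34, -0.35 and -0.25. The eighth was Ugt1a6b with 1.08, against -0.07. The UGT median was 0.64 with 13 of 14 genes above 0, and Ugt2b36, Ugt2b5 and Ugt2b34 lay between 0.94 and 0.96. Among SULT genes, with a median of 0.43, Sult1c2 had 0.94 and Sult1d1 0.69, against -0.07 and -0.49. Less the self-self array, 16 members were at or beyond 2-fold, where 3.29% of all genes were. There was 1 array, and therefore no test.

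The 2 Ugt1a6b probes and the probes of Ugt1a9 and Ugt1a1 were read side by side, because the downstream Ugt1a6b probe may lie in the common exons. On the experiment 2 array labelled Ascl2 OE, the downstream probe was 0.13 and the upstream Ugt1a6b probe 0.24, while Ugt1a9 was -1.35 and Ugt1a1 -0.89. On the Tcf7l2 null array the same 4 probes gave -0.32, -0.50, -1.60 and -0.96. On the self-self array of that slide they gave 0.25, -0.14, -0.04 and -0.21, so the 2 Ugt1a6b probes also differed where both colours held 1 RNA. On the Ascl2 null array all 4 were above 0, with 0.53 for Ugt1a1, 0.77 for Ugt1a9, 0.94 for the upstream and 1.23 for the downstream Ugt1a6b probe. In experiment 1 the upstream Ugt1a6b probe was -0.13 and -0.11, and the downstream probe -0.42 and -0.72, close to the -0.46 and -0.79 of Ugt1a1. The order of the 4 probes was thus not the same on all arrays. The value given for Ugt1a6b elsewhere is the mean of its 2 probes.

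**Figure D5:**
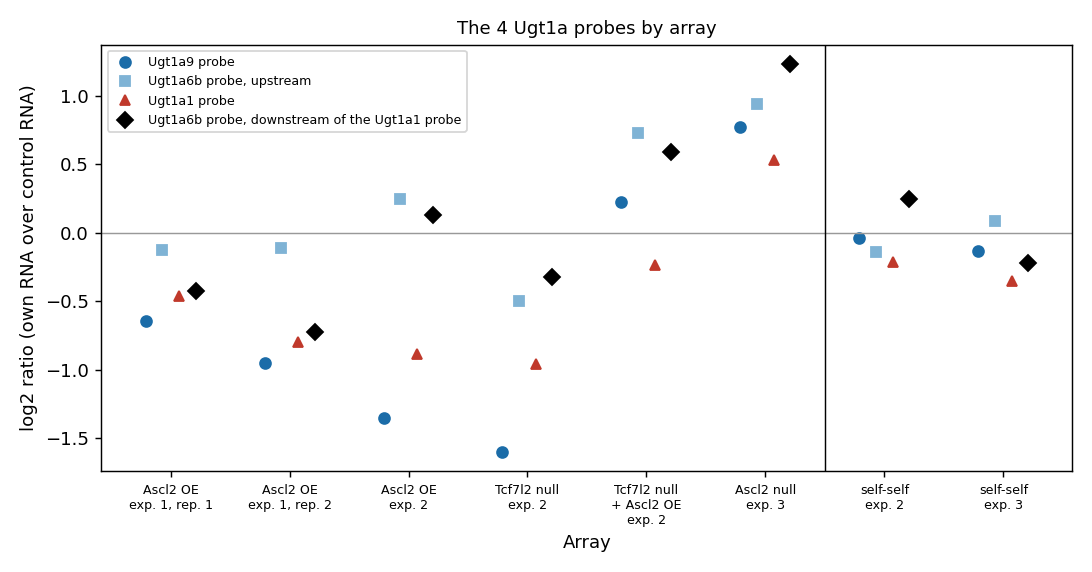
Log2 ratio of own RNA over control RNA for the 4 Ugt1a probes on the 8 arrays, with the self-self arrays right of the line. The Ugt1a9 probe, at -1.35 and -1.60, and the Ugt1a1 probe, at -0.89 and -0.96, stand below both Ugt1a6b probes on the Ascl2 OE and Tcf7l2 null arrays of experiment 2.

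Other genes with several probes showed how far such readings vary. The 2 Gstm1 probes gave 1.91 and 0.98 on the array of both changes, and 0.42 and -0.48 on the self-self array of that slide. On the Ascl2 null array they gave 1.79 and 1.78. In experiment 1 they gave -0.70 and -0.50 on replicate 1, and -1.39 and -0.55 on replicate 2. Of 3 Ugt2a1 probes, 2 gave -1.05 and -1.13 on the experiment 2 array labelled Ascl2 OE, and the third, which was well above background on 4 arrays, gave -0.16. Ugt2a1 is known from the olfactory epithelium.

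The filter was not passed by 7 members, with no colour well above background on any array. They were 6 SULT genes (Sult2a3, Sult2a4, Sult2a5, Sult2a6, Sult3a1 and Sult6b1) and Ugt2b1. The Sult2a enzymes sulfate bile acids and hydroxysteroids in the liver. No ratio is given for these 7 genes.

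Genes that supply and follow conjugation were taken from lists. In experiment 1 the limma test passed for 3 of 69 such genes with a value, all lower, beside the background of 0.684% for that direction. They were Ephx2, the soluble epoxide hydrolase, at -1.20 (SE 0.15, adjusted p = 0.0325), and from the NRF2 list the carbonyl reductase Cbr3 at -1.04 (SE 0.11, adjusted p = 0.0227) and malic enzyme Me1 at -0.98 (SE 0.13, adjusted p = 0.0356). The quinone reductase Nqo1 had -0.83 and the sulfiredoxin Srxn1 -0.63, with adjusted p of 0.0538 and 0.0502. Cbr3 was also the single one of these genes to pass the test of experiment 2 minus experiment 1, on the higher side. On the Ascl2 null array Cbr3 had 6.38, the highest ratio of all genes there, against -0.32 on the self-self array. It had 2.90 on the array of both changes and 2.10 on the experiment 2 Ascl2 OE array, against -0.21 on the self-self array of that slide. NRF2 is the transcription factor that switches on many of these genes, among them GST genes, under oxidative stress. Of 11 detected genes of the NRF2 list, 7 were above 0 on the array of both changes, where 51.2% of all genes were. On the Ascl2 null array 10 were, where 50.9% of all genes were. List medians were -0.17 and -0.38 in experiment 1, and 0.24 and 0.47 on those arrays. On the self-self arrays they were -0.16 and -0.03. Prdx1 had 0.22 and 0.21 in experiment 1, Hmox1 -0.33 on the array of both changes and Txnrd1 -0.33 on the Ascl2 null array. The part of NRF2 was not tested.

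Of 12 genes of glutathione supply, none passed in experiment 1, and all 12 were above 0 on the Ascl2 null array, where 50.9% of all genes were, with a median of 0.61. On the self-self array of that slide 8 of 12 were above 0, with a median of 0.16. Less that array 11 of 12 were above 0, with a median of 0.48, and Gpx2, a gut glutathione peroxidase, was -0.75. Ggt1, which breaks down glutathione conjugates at the cell surface, had 2.60 there, against 0.51 on the self-self array, and 2.0 on the array of both changes, against 0.07. Oplah, of the same cycle, had 2.48 on the Ascl2 null array and -1.20 on the experiment 2 Ascl2 OE array, against 0.18 and 0.06. Of 5 genes of UDP-glucuronate supply, 4 were below 0 on the experiment 2 self-self array, with a median of -0.03. On the Tcf7l2 null array 4 were below 0 as well, where 49.6% of all genes were, with a median of -0.58. Ugdh, which makes UDP-glucuronate, had -1.0 there, against -0.07 on the self-self array, and -0.51 and -1.01 in experiment 1 (limma adjusted p = 0.119). Of 7 detected genes of PAPS supply, the PAPS synthase Papss2 had -1.24 on the Tcf7l2 null array, against -0.62, and 1.32 on the Ascl2 null array, against 0.13. The 9 efflux transporters stayed under 2-fold on all condition arrays. The 17 detected transcription factors of the xenobiotic and enterocyte list had a median of 0.30 on the Ascl2 null array. The only 2 beyond 2-fold there were Vdr, the vitamin D receptor, at 1.13 and Cdx2, an intestinal homeobox factor, at -1.43. Their self-self values were 0.23 and 0.33. Less the self-self array Vdr was 0.90, under 2-fold, and Cdx2 -1.76.

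Enterocyte markers were set beside the members. The marker median over 15 genes was -0.62 and -0.73 in experiment 1, -0.43 on the experiment 2 Ascl2 OE array and -0.62 on the Tcf7l2 null array. It was 0.10 on the array of both changes and 0.45 on the Ascl2 null array. On the self-self arrays it was -0.13 and 0.09. All 15 markers were below 0 on both experiment 1 arrays, where 27.1% of all genes were. On the Tcf7l2 null array all 14 with a value were below 0, where 49.6% of all genes were. The self-self array of that slide had 12 of 15 below 0. On the Ascl2 null array 12 were above 0, where 50.9% of all genes were. The 3 below 0 there were Sis at -0.61, Lct at -0.58 and Dpp4 at -0.65. The self-self array of experiment 3 had 11 above 0. The summed signal of the 15 markers was between 405694 and 849095 intensity units in own RNA and between 352874 and 910434 in control RNA. On the experiment 2 Ascl2 OE array the GST median was 0.33 (0.15 less the self-self array), beside -0.43 for the enterocyte markers. The enteroendocrine list had medians of -1.06 and -1.04 in experiment 1, 3.05 on the experiment 2 Ascl2 OE array, 0.19 on the Tcf7l2 null array, 3.25 on the array of both changes and 3.57 on the Ascl2 null array. On the array of both changes the Paneth median was -1.90, the proliferation median -1.76, the stem cell median -1.56, the tuft median 1.04 and the hepatocyte median 0.98. On the experiment 2 Ascl2 OE array the Paneth median was -1.89, the stem cell median -0.78, the tuft median 0.75 and the hepatocyte median 0.85. The hepatocyte medians rest on 3 dim genes. The summed own signal of that list was 914 units on the array of both changes and 711 on the Ascl2 OE array. The part of cell composition in the members' values was not tested.

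Promoters of the detected members were read in RefSeq windows of 300 bases, most of them before each gene's start (GRCm38.p6), of which 48 matched by symbol. The motif GTTAAT, found in sites of the liver and gut factor HNF1, was searched on both strands. It was found in 14.6% of member windows, against 7.1% of all 32851. The 7 members with it were Ugt1a9, Ugt1a1, Ugt2a3, Ugt3a1, Gsta3, Sult1a1 and Sult1d1. On the Tcf7l2 null array Ugt1a9 and Ugt1a1 had -1.60 and -0.96, and the other 5 between -0.36 and -0.0060. The stretches of the 2 Ugt1a genes are shown, because their ratios are described above, with the motif (here on the minus strand, read as ATTAAC) in capitals. They lie at chr1:88070661-88070720 and chr1:88211891-88211950, plus strand.
Ugt1a9 promoter: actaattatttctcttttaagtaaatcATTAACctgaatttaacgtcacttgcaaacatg
Ugt1a1 promoter: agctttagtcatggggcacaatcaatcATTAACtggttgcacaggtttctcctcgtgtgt
The core of the antioxidant response element, TGACNNNGC, was in 6.25% of member windows (Gsta3, Gstm5 and Gstm7), against 12.4% of all. The E-box CAGCTG was in 10.4%, against 16.3%, and the TCF motif CTTTGA in 16.7%, against 16%. These matches describe letters in a short window, and no relation to the ratios was tested.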

How the data were processed

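The deposited scanner files hold the spot and local background intensity of each colour (Agilent Feature Extraction 10.5.1.1, per the file headers), and the log10 ratio of Cy5 over Cy3 in them is the authors' scanner output. The authors' deposited table holds log2 ratios per spot, and was an alternative. On the experiment 1 arrays, 8.66% and 8.40% of its values differed from the scanner's by more than 0.02, for a reason not given in the sources used here, and replicate 2 is turned. Medians per array in that table ran from -0.01 to 0.03. Median intensities were background-corrected with normexp (offset 50) and loess-normalised within arrays (R 4.3.3, limma 3.58.1), after control and outlier spots were given weight 0. Spots with a non-uniform local background were left out, because on experiment 1 replicate 2 they reached 407956 units, against a median of 34, and shifted the normexp fit. This was decided after seeing the data. The planned version is an alternative. Passing probes were averaged per gene. Of 65 member probes, 61 matched a RefSeq accession, all with an unchanged symbol. The limma models held a dye term and an effect per condition, leaving 2 residual degrees of freedom (3 for the shared effect), two-sided, and p was adjusted (Benjamini-Hochberg) across the whole table at 0.05. The fitting code was tested on simulated data. Precision is limited by how few arrays there are. The rule for named members took those that reached 2-fold on a condition array, passed a test or were among the 6 smallest p of a test. Other members named with values, such as Gstt2, Sult1b1, Sult1d1, Ugt2a1, Ugt2b34, Ugt2b35 and Ugt2b37, were chosen after their values were seen. Members and lists were chosen with earlier results of these data known.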

Additional observations from a re-analysis of the deposited data

How the results depend on the processing

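In experiment 1, 206 genes and 2 members passed. Genes passing were 1 under median centring, 81 without background correction, 1 with the scanner's log ratio, 11 in the authors' deposited table, 0 with non-uniform local backgrounds kept (a setting added after seeing the data) and 2 to 2 when a replicate was left out. Members passing were 0 under each of these settings, leave-one-out included (0 to 0), and 1 with the brightest probe per gene. For the shared effect, with 15 genes and 0 members, genes passing were 0 under median centring, the scanner's log ratio, the authors' deposited table, non-uniform backgrounds kept and a dye term per slide, 46 without the filter on dim probes, and 0 to 206 when an array was left out, with 0 to 2 members. For experiment 2 minus experiment 1, with 136 genes and 0 members, genes passing were 0 under median centring and 29 to 151 when a replicate was left out, and members passing were 2 without the filter on dim probes and 1 with non-uniform backgrounds kept. On the Tcf7l2 null array the member median was -0.019 and the GST median 0.25, a reversed sign, under median centring, and 7 or 5 members were beyond 2-fold with the scanner's ratio or the authors' deposited table. On the array of both changes 14 members were beyond 2-fold, with a median of 0.70, under median centring. On the experiment 2 Ascl2 OE array 10 were beyond 2-fold under median centring and 5 with the brightest probe, and on the Ascl2 null array 16 were less the self-self array. Over the alternatives, the experiment 2 Ascl2 OE medians ran from -0.71 to -0.29 (UGT) and 0.15 to 0.71 (GST), those on the array of both changes from 0.063 to 0.48 (UGT) and 0.60 to 1.07 (GST), and the Tcf7l2 null UGT median from -0.58 to -0.19. The causes were not tested. A dye term per slide could not be fitted for experiment 1 or the difference, which left no residual degrees of freedom. No paired analysis was possible because only experiment 1 has replicates, and its control is on the same arrays.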
